A study of Sus scrofa with 28 samples.

Results

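F3 encodes tissue factor, also called coagulation factor III, and its mRNA was followed here in pig lung 12 h after inhalation of sulfur mustard vapor (HD, an alkylating vesicant). Of the 23999 probe sets tested on the porcine array, 1 carried the single symbol F3, probe set Ssc.19907.1.S1_at with Entrez gene ID 396677. F3 was chosen because its level had been seen to be ordered by dose in these same arrays, so its exposure values are given as a description and without a test. Only its lobe values, which the choice did not use, were tested.

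Anesthetized, intubated female swine (Sus scrofa) lay supine and breathed air, 60 µg/kg HD (low dose) or 100 µg/kg HD (medium dose) for 10 min, and the lungs were divided by lobe at 12 h. The air group was animals 28, 29 and 44, the low group was animals 31, 32 and 33, and the medium group was animals 34, 39, 41 and 42. The labels gave no strain, age, genetic modification, batch or scan date, and all 10 animals shared the anesthesia, intubation and overnight withdrawal of food. Total RNA of the left apical, median and caudal lobes filled 28 arrays, with no caudal array for medium animal 39 and no apical array for medium animal 41.

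Tissue factor is a transmembrane glycoprotein that binds the plasma protease factor VII and its active form. The complex activates factors IX and X, and this starts the extrinsic pathway that ends in thrombin and fibrin. Lung is known as one of the tissues rich in tissue factor, with alveolar epithelium, perivascular cells and activated macrophages among its sources, while tissue factor pathway inhibitor (TFPI) restrains the complex. F3 is also known as an immediate early gene whose promoter, in human cells, binds AP-1, NF-kB, SP1 and EGR1.

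F3 was among the bright probe sets. Its deposited signal, an intensity on a linear scale, averaged 775 over the 28 arrays, above 95.3% of the probe sets tested. Array medians lay between 55.4 and 64.2. The tissue label was checked against marker genes: the 4 measured alveolar type 2 markers of 7 listed summed to between 5067 and 6973 per animal over the 3 groups, and the 7 endothelial markers to between 5575 and 6387. The 6 heart and striated muscle markers summed to 188 to 280, with MYH7, TNNT2 and MYL2 under a signal of 16. None of the 5 airway basal markers had a probe set of its own name.

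In the air animals the F3 signal in the apical, median and caudal lobes was 480, 656 and 471 in animal 28 and 375, 501 and 388 in animal 29. Animal 44 had 533, 310 and 244. The apical lobe was thus the highest in animal 44, and the median lobe in the other two.

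In the low-dose animals the signal was 652, 686 and 615 over the apical, median and caudal lobes of animal 31. Animal 32 had 655, 871 and 1150, and animal 33 had 501, 455 and 698. The caudal lobe was the highest in animals 32 and 33. Above the highest air array lay the median lobes of animals 31 and 32 and the caudal lobes of animals 32 and 33, and the other low-dose arrays lay within the air range.

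In the medium-dose animals the signal was 610, 1264 and 1369 over the apical, median and caudal lobes of animal 34 and 1205, 1439 and 819 in animal 42. Animal 39 had 552 in the apical and 1810 in the median lobe, and animal 41 had 1507 in the median and 884 in the caudal lobe. All 4 median lobes lay above every air and every low-dose array of any lobe, whereas the apical lobes of animals 34 and 39 lay within the air range.

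Averaged over the lobes of an animal, F3 was 536, 421 and 362 in air animals 28, 29 and 44, 651, 892 and 551 in low-dose animals 31, 32 and 33, and 1081, 1181, 1196 and 1154 in medium-dose animals 34, 39, 41 and 42. The groups did not overlap. Means were 440 ± 88.1 with air (SD, n = 3), 698 ± 175 at the low dose (SD, n = 3) and 1153 ± 50.9 at the medium dose (SD, n = 4). The medium mean was 2.62 times the air mean and 1.65 times the low mean, and the low mean was 1.59 times the air mean. Medium animals 39 and 41 had 2 lobes each and all other animals 3, so these means and ratios mix unlike sets of lobes. The same holds for their spread. The coefficient of variation was 20.0% in air, 25.1% in low-dose and 4.41% in medium animals, which were the closest to each other. This closeness held for animal means and not for single lobes, which ran from 552 to 1810 at the medium dose.

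On the log2(signal + 16) scale after quantile normalization, with 1 value per animal from a model of animal and lobe, F3 was 1.26 ± 0.17 higher in medium than in air animals (SE). It was 0.66 ± 0.18 higher in low-dose than in air animals and 0.60 ± 0.17 higher in medium than in low-dose animals. Relative to the air mean, air animals lay at 0.30, -0.02 and -0.28, low-dose animals at 0.60, 1.02 and 0.35, and medium animals at 1.23, 1.11, 1.34 and 1.36. The medium-minus-air difference of F3 ranked 14 from the top of all probe sets. Of all probe sets, 0.275% had air, low and medium animals in this order without overlap, 6.88% had every medium animal above every air animal and 6.6% had every medium animal below. Since F3 was selected on this ordering, nothing is read from its place among them.

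As a whole, the exposure fits made few calls by limma at an adjusted p under 0.05. Medium against air gave 31 probe sets (0.129%), of which 22 were higher and 9 lower, medium against low gave 1 (0.00417%), and low against air gave 0 (0%). Unadjusted p-values under 0.05 numbered 3978, 4374 and 1779 in these comparisons. The counts moved with single animals: medium against air gave 0 without air animal 29 or medium animal 41 and 383 without medium animal 39, and medium against low gave 1371 without medium animal 34.

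By lobe, F3 differences between exposures were smallest in the apical lobe. The medium-minus-air difference was 0.66 ± 0.28 there, against 1.57 ± 0.26 in the median and 1.48 ± 0.30 in the caudal lobe (log2 ± SE). The low-minus-air difference was 0.38 ± 0.28 in the apical, 0.47 ± 0.28 in the median and 1.13 ± 0.30 in the caudal lobe. The step between the doses was placed differently: medium minus low was 1.11 ± 0.26 in the median lobe, and 0.28 ± 0.28 and 0.35 ± 0.30 in the apical and caudal lobes.

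Whether the exposure differences of F3 varied between lobes was tested as an interaction, blocked by animal. The moderated F over 4 coefficients was 2.57, with an adjusted p of 0.708 in limma. By this test the interaction did not pass, and it passed for 0% of probe sets, with 1773 at an unadjusted p under 0.05. Leaving out 1 animal moved F between 1.71, without medium animal 39, and 5.74, without medium animal 42, with adjusted p between 0.588 and 0.862.

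The 9 groups of exposure and lobe stood in this order of mean F3 signal: air caudal 368 ± 115, air apical 463 ± 80.3, air median 489 ± 173, low apical 603 ± 87.9, low median 671 ± 209, medium apical 789 ± 361, low caudal 821 ± 288, medium caudal 1024 ± 301 and medium median 1505 ± 227 (SD, n = 4 in the last and 3 in each other group). Every group overlapped its neighbour in this order. The 3 air lobes held the lowest places and the medium median lobe the highest, with 819 to 1369 in the medium caudal lobe and 1264 to 1810 in the medium median lobe.

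Lobes were compared within animals. Over all exposures, F3 ran from 375 through a median of 552 to 1205 in 9 apical arrays, from 310 through 779 to 1810 in 10 median arrays and from 244 through 698 to 1369 in 9 caudal arrays. These ranges overlapped over most of their length.

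The apical-minus-median difference of F3 was -0.39 ± 0.19 (log2 ± SE, 95% confidence interval -0.79 to 0.01), which did not pass (adjusted p = 0.316, limma). A two-sided exact sign permutation test over the 9 animals gave p = 0.145. The apical lobe was the lower in 7 of 9 animals. The differences were -0.46, -0.41 and 0.75 in the air animals, -0.08, -0.43 and 0.14 in the low-dose animals, and -1.05, -1.60 and -0.16 in the 3 medium animals with both lobes. With the exposed animals alone the difference was -0.57 (adjusted p = 0.259), and with the air animals alone -0.04 (adjusted p = 0.993). Across all probe sets this pair of lobes gave 570 calls (2.38%), 336 higher and 234 lower in the apical lobe, and 33, 34, 47, 63, 153 and 248 without animals 34, 42, 39, 44, 28 and 32.

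Against the caudal lobe, the apical lobe differed by -0.13 ± 0.20 (interval -0.55 to 0.29, adjusted p = 0.829), with 4 of 8 animals on each side, where 0.167% of all probe sets were called. The median lobe was 0.26 ± 0.19 above the caudal lobe (interval -0.14 to 0.66, adjusted p = 0.639), and 0% of probe sets were called there by limma, with 2783 at an unadjusted p under 0.05. All 3 air animals had more F3 in the median lobe, by 0.35 to 0.50, while 1 of 3 low-dose animals and 2 of 3 medium animals did.

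**Figure D1:**
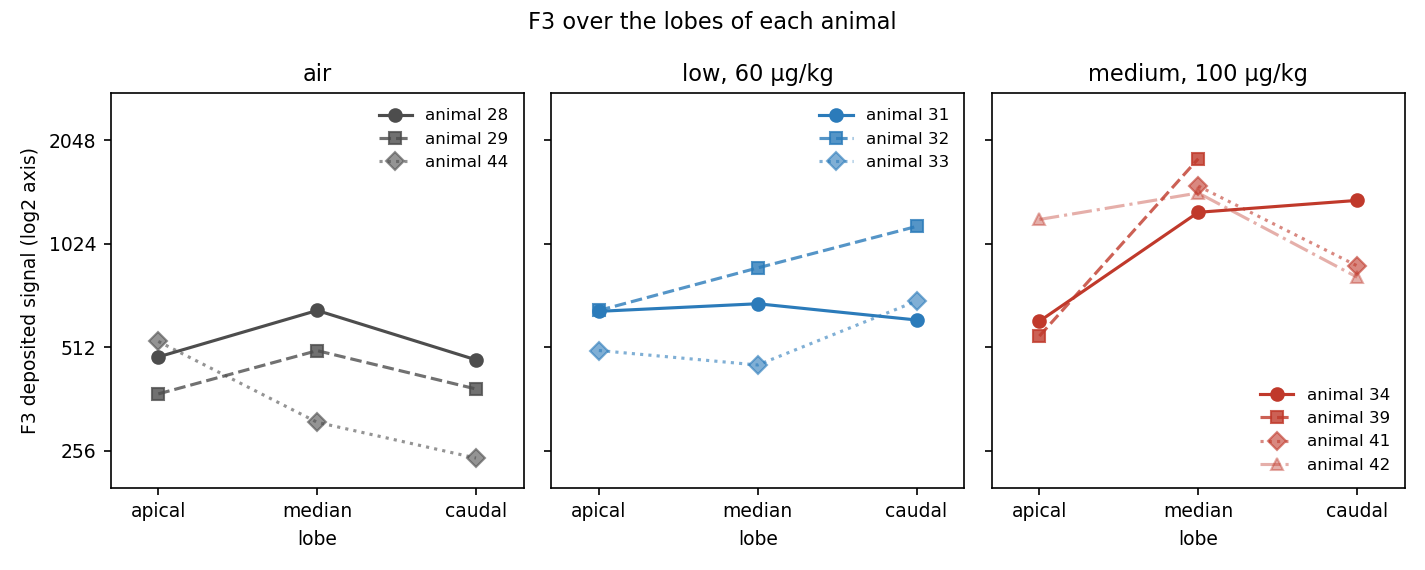
F3 deposited signal on a log2 axis over the apical, median and caudal lobes, with 1 line per animal and 1 panel per exposure. All 3 medium animals with an apical array have their median lobe above it, air animal 44 is highest in the apical lobe, and low-dose animal 32 is highest in the caudal lobe, at 1150.

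In whole-lobe RNA, a different number of cells of a type and a different amount of RNA per cell cannot be told apart, so marker sums are set beside the F3 values. The monocyte and macrophage sum of 6 markers ran over 2509 to 3305 in air, 2770 to 3734 in low-dose and 1553 to 3399 in medium animals, with ITGAM under 16. The endothelial sum was 5613 to 6252, 5671 to 6387 and 5575 to 6098, and the fibroblast sum of 5 markers 4260 to 4649, 4246 to 4661 and 4305 to 4681 in the same groups. These 3 sums overlapped between all exposures, and so did the neutrophil, platelet and erythroid sums. The alveolar type 1 sum of 5 markers, 6995 to 7388, 6367 to 7378 and 7027 to 8119 in the same order, overlapped too. So did the alveolar type 2 sum of 4 markers, at 5462 to 6956, 6428 to 6838 and 5067 to 6973. The ciliated sum of 5 markers was 891 to 1210, 1106 to 1406 and 945 to 996, with medium below low-dose animals. Single monocyte and macrophage markers ranged from -0.57 to 0.82 in medium minus air (log2).

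Other sums differed between air and exposed animals. Of 7 listed airway secretory markers the 2 measured were KRT19 and CLDN4, and no secretoglobin or mucin of the list was measured. The sum of KRT19 and CLDN4 is therefore read for these 2 genes only and not for secretory cells. It was 331 to 432 in air, 534 to 647 in low-dose and 500 to 559 in medium animals, so that both exposed groups lay above air. The smooth muscle sum of 6 markers was 5996 to 7709, 6872 to 8042 and 7387 to 9126 in that order, with overlap. The T and NK sum of 5 markers was 1427 to 1466, 1000 to 1602 and 622 to 1195, and the B and plasma sum of 2 markers was 1811 to 1874, 1440 to 1637 and 1423 to 1645, each lower at the medium dose than in air. At the low dose the T and NK range took in the whole air range, while the B and plasma range lay below air. No measured marker of these lists passed the medium-against-air test, and their part in the F3 values was not tested.

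An index of RNA quality, computed as log2 of the 3' over the 5' control signal, averaged over actin and GAPDH, was 1.12 in air (0.97 to 1.35 over animals), 0.76 at the low dose (0.62 to 1.06) and 1.24 at the medium dose (0.66 to 2.17). Medium animal 39 was at 2.17, apart from the others. Without this animal the F3 difference between medium and air was 1.32, and with the index as a covariate it was 1.25.

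Genes of clotting and fibrinolysis, of factors described at the human F3 promoter and of endothelial activation were read from 6 lists with 66 genes. Of these, 47 had a probe set of a single symbol, and 21 of the 47 had a mean signal under 50. By limma, 0 of the 47 passed in medium against air, medium against low or low against air, with 17, 7 and 4 at an unadjusted p under 0.05. The median medium-minus-air difference of the 47 was 0.11 and 32 lay above 0, beside a median of -0.00044 and 49.9% above 0 over all probe sets. All medium animals lay above all air animals for 13 of the 47 (27.7%) on the fitted scale, beside 6.88% of all probe sets, and below for 2 (4.26%), beside 6.6%. The 13 were 4 genes each of the fibrinolysis and promoter lists, 3 anticoagulants, F2R and ICAM1, with 0 coagulation factors. The 2 below were F9 and PROS1. SERPIND1, SERPINB2 and FOSL1 among the 13 were dim, at medium-dose means of 8.69, 19.5 and 38.2. The comparison with air uses the same 3 air animals that chose F3, and the lists were chosen with earlier results of these data known. Shares of list genes, here and below, are therefore a description. A model with a random animal effect was also fitted to all arrays, which counts the lobes of 1 animal as partly separate. In it, 8 of the 47 (17.0%) passed in medium against air, beside 4.35% of all probe sets. They were FOS, FOSL1, FOSL2, JUN and EGR1 of the promoter list, PLAU and THBS1 of fibrinolysis, and PROS1 of the anticoagulants.

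Partners and substrates of tissue factor were mostly too dim to read. Of 16 coagulation factors 9 were measured, and F7 and F10, the ligand and a main substrate of the complex, had no probe set of their own name, nor did F2. Of the 9, 8 had a mean signal under 50, 3 lay above 0 and the median difference was -0.05. F5, the cofactor of factor X, averaged 24.1 ± 5.65 in medium and 28.4 ± 4.70 in air animals (SD, n = 4 and 3), a difference of -0.19 ± 0.13 (adjusted p = 0.496). FGB, a fibrinogen chain, was at 10.96 ± 3.66 and 10.6 ± 0.424 (difference -0.04 ± 0.09, adjusted p = 0.865), a value without a settled direction between scalings. The bright member, VWF of endothelium, was at 600 ± 119 in medium and 697 ± 97.8 in air animals (difference -0.20 ± 0.16).

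Inhibitors of clotting were measured for 9 of 10 genes, with a median difference of 0.08 and 6 above 0. TFPI, the direct inhibitor of the tissue factor complex, was dim at 16.2 ± 1.46 in medium and 17.1 ± 1.79 in air animals, so its difference of -0.10 ± 0.07 (adjusted p = 0.496) was read near the offset. TFPI2, a related inhibitor, was at 224 ± 22.1 and 203 ± 4.70 (0.13 ± 0.16, adjusted p = 0.719). THBD, the thrombin receptor thrombomodulin, was at 788 ± 235 and 615 ± 17.5 (0.30 ± 0.22, adjusted p = 0.525). Its 4 medium animals spread from 502 to 990, on both sides of the air animals.

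PROCR, the endothelial protein C receptor, was at 164 ± 24.7 in medium and 111 ± 16.2 in air animals (0.50 ± 0.22, adjusted p = 0.299). PROS1, protein S, the cofactor of activated protein C and of TFPI, had its medium animals at 741 to 875 and its air animals at 937 to 1108, with no overlap. Its difference was -0.31 ± 0.08 (adjusted p = 0.127, and adjusted p = 0.0221 with a random animal effect). Every medium animal lay below every air animal for 6.6% of all probe sets and 4.26% of the list genes, so nothing is read from this separation.

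Of 4 thrombin and protease receptors, 2 were measured. F2R, the main thrombin receptor PAR1, averaged 900 ± 140 in medium and 735 ± 29.3 in air animals (0.28 ± 0.09, adjusted p = 0.199), and F2RL2, PAR3, 936 ± 623 and 548 ± 250 (0.64 ± 0.45, adjusted p = 0.512). F2RL1, which encodes the receptor PAR2 that the tissue factor complex can cleave, had no probe set of its own name.

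Fibrinolysis genes were measured for 8 of 12, with a median difference of 0.39 and all 8 above 0. The list holds activators and inhibitors, so this count has no functional direction. Of the 8, 2 had a mean signal under 50, PLG and SERPINB2. Differences were small for PLG (0.09 ± 0.07), S100A10 (0.07 ± 0.07) and ANXA2 (0.11 ± 0.07). SERPINE2, protease nexin 1, a thrombin and plasminogen activator inhibitor, was at 618, 639, 609 and 482 in medium animals 34, 39, 41 and 42, against 334, 295 and 390 in air animals 28, 29 and 44. The groups did not overlap, and the difference was 0.63 ± 0.17 (adjusted p = 0.128). THBS1, the matricellular thrombospondin 1, was at 1074 to 1739 in medium and 809 to 948 in air animals (0.54 ± 0.14, adjusted p = 0.120, and adjusted p = 0.0389 with a random animal effect); its 4 dimmer probe sets gave 0.37 to 1.60. PLAU, urokinase, was at 315 to 471 and 222 to 317 (0.49 ± 0.15, adjusted p = 0.163, and adjusted p = 0.0249 with a random animal effect), and PLAT, tissue plasminogen activator, at 222 ± 55.0 and 179 ± 23.9 (0.28 ± 0.20, adjusted p = 0.523). PLAUR, the urokinase receptor, had no probe set of its own name.

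Among 14 genes for transcription factors described at the human F3 promoter and their regulators, 9 were measured, with a median difference of 0.61 and 8 above 0. Of the 9, 3 had a mean signal under 50, FOSL1, NFKB1 and SP1. NFKB1 was the 1 below 0, at -0.17 ± 0.09 (adjusted p = 0.391), with mean signals of 5.59 in medium and 7.59 in air animals. SP1 counted among the 8 above 0 at only 0.02 ± 0.18 (adjusted p = 0.965), with mean signals of 13.2 and 12.1. Both were too dim to read for NF-kB or SP1. FOS, a subunit of AP-1, was at 412, 270 and 455 in air animals 28, 29 and 44, at 823, 837 and 472 in low-dose animals 31, 32 and 33, and at 1123, 1087, 730 and 684 in medium animals 34, 39, 41 and 42. Low-dose and medium animals overlapped, and both lay above air. Its medium-minus-air difference of 1.28 ± 0.25 (adjusted p = 0.0778, and adjusted p = 0.0103 with a random animal effect) was the one above the F3 value when each of the 47 list genes was read from its brightest probe set; dimmer probe sets of THBS1, at 1.29 and 1.60, also lay above it.

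JUN, the partner of FOS in AP-1, was at 1539 to 1756 in medium and 774 to 1480 in air animals (0.71 ± 0.18, adjusted p = 0.121, and adjusted p = 0.00818 with a random animal effect). EGR1, a zinc finger factor, was at 653 to 1065 and 279 to 682 (0.87 ± 0.27, adjusted p = 0.163, and adjusted p = 0.0421 with a random animal effect), and its dimmer probe sets gave 0.70 and 0.37. The AP-1 genes FOSL2 and FOSL1 had differences of 0.61 ± 0.19 and 0.66 ± 0.21 (adjusted p = 0.159 and 0.175, and adjusted p = 0.0191 and 0.0330 with a random animal effect). FOSL1 was dim, at 38.2 ± 22.9 in medium and 15.8 ± 2.52 in air animals. ATF3, a stress-induced factor, had a difference of 0.39 ± 0.23 (adjusted p = 0.438). NFKBIA, the inhibitor of NF-kB that is itself an NF-kB target, was at 1344 ± 234 and 1177 ± 199 (0.20 ± 0.14, adjusted p = 0.501).

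Of 10 endothelial activation and inflammation genes, all were measured, and 5 lay above 0 with a median difference of 0.05. CXCL8, the neutrophil chemokine interleukin 8, was at 116 ± 28.2 in medium and 68.8 ± 17.1 in air animals (0.65 ± 0.18, adjusted p = 0.138). Without medium animal 34, CXCL8 passed in medium against air, at 0.82 (adjusted p = 0.0381), and in medium against low, at 1.12 (adjusted p = 0.0158). THBS1 and FOSL2 also passed in medium against low without this animal, at 0.63 and 0.80 (adjusted p = 0.0309 and 0.0279). These 3 of 47 (6.38%) were near the share of all probe sets, 5.71%, that passed there without animal 34, and the 1 of 47 (2.13%) in medium against air stood beside 0.988%. CCL2, the monocyte chemokine, was at 865 ± 196 and 454 ± 225 (0.79 ± 0.28), and ICAM1, a leukocyte adhesion molecule, at 1300 ± 151 and 1070 ± 63.8 (0.26 ± 0.10). IL6 and IL1A also lay above 0, at 0.46 ± 0.24 and 0.18 ± 0.11. The 5 below 0 were TNF (-0.37 ± 0.17), SELE (-0.28 ± 0.15), IL1B (-0.11 ± 0.11), SELP (-0.08 ± 0.15) and VCAM1 (-0.08 ± 0.11). Of the 10, 4 had a mean signal under 50.

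**Figure D2:**
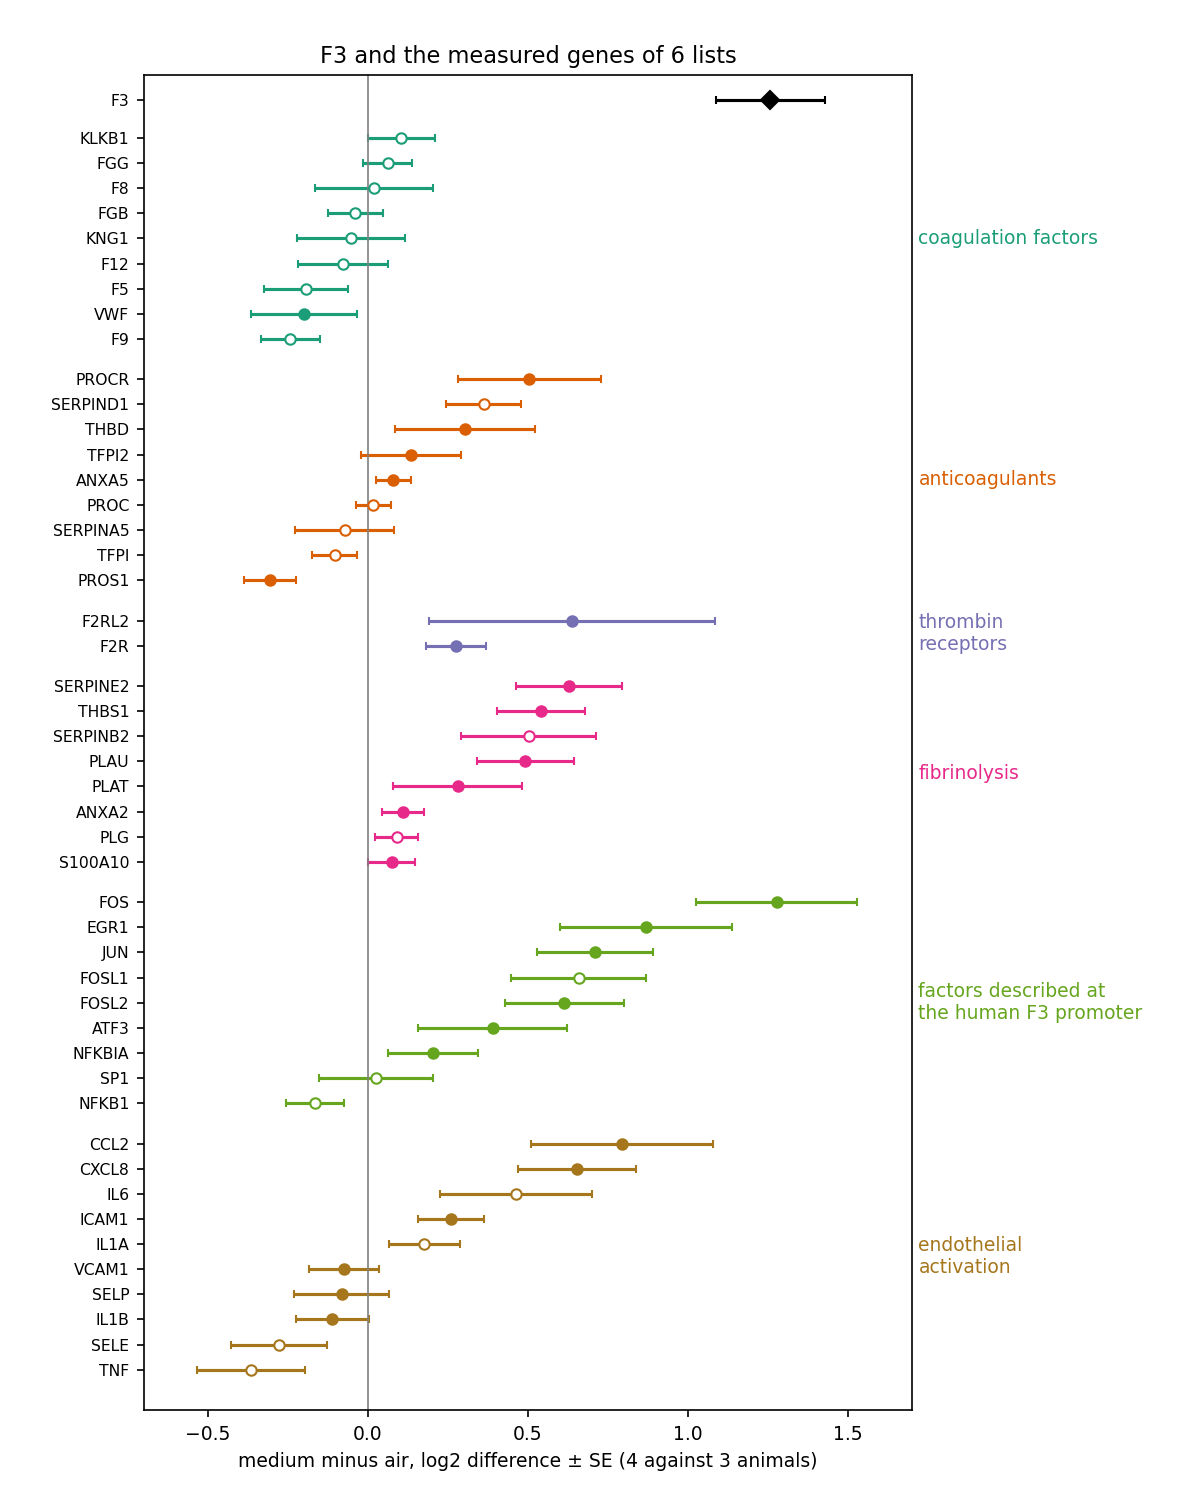
Medium-minus-air log2 differences with SE for F3 (black diamond) and the 47 measured list genes, from 4 medium and 3 air animals. Open points have a mean signal under 50. F3 stands at 1.26 and FOS at 1.28, all 8 fibrinolysis genes lie right of 0, 2 of them as open points, and most coagulation factors are open points near 0.

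Against the lobe result of F3, 4 of the 47 list genes passed between the apical and the median lobe (8.51%, against 2.38% of all probe sets), and 0 between the other pairs by limma, with 12 and 5 at an unadjusted p under 0.05 for apical against caudal and median against caudal. SERPINE2 was 0.79 ± 0.19 lower in the apical lobe (adjusted p = 0.0380, lower in 8 of 9 animals) and THBS1 0.38 ± 0.10 lower (adjusted p = 0.0451, lower in 8 of 9). CXCL8 was 0.52 ± 0.13 higher there (adjusted p = 0.0380, higher in 8 of 9) and F2RL2 0.26 ± 0.06 higher (adjusted p = 0.0383, higher in 9 of 9).

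These 4 calls lay near the threshold, and each was lost on leaving out any 1 of several animals. SERPINE2 and THBS1 no longer passed on leaving out animal 28, 44, 32, 33, 34, 39, 41 or 42, with adjusted p of 0.0520 to 0.130 and 0.0620 to 0.127. CXCL8 no longer passed without 28, 44, 31, 34, 39 or 42 (0.0664 to 0.125), and F2RL2 without 28, 29, 44, 31, 32, 34, 39 or 42 (0.0583 to 0.124). All kept their direction in each case. With the animal as a random replicate block F2RL2 had an SE of 0.18 and no longer passed (adjusted p = 0.576), while the other 3 did. With an offset of 1 none of the 4 passed (0.0584 to 0.0701), nor with no replicate block (0.0794 to 0.870), and THBS1 did not with median-centred arrays (0.0537). Subsets with fewer animals also lost all 4 calls. Adjusted p was 0.0655 to 0.129 in the 8 animals with 3 lobes, 0.132 to 0.218 in exposed animals alone and 0.777 to 0.787 in air animals alone.

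The genes most like F3 were found by Pearson correlation over the 10 animal values, among 5238 genes with 1 symbol and a mean signal of at least 50. These animals share the 3 exposures that F3 follows, so a gene ordered by dose ranks high by construction of the groups, and 27 genes had an r of at least 0.9 in size. The coefficients are a description.

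TM7SF2, a sterol reductase of cholesterol synthesis, was the most like F3, with r = 0.957 (Spearman 0.891, and r = 0.902 without air animals 44 and 29, the farthest from the median of F3). It averaged 149 ± 10.2 in air, 186 ± 24.7 in low-dose and 207 ± 12.5 in medium animals. TNFRSF12A, the receptor of the cytokine TWEAK, followed with r = 0.946 and signals of 121 ± 24.3, 195 ± 56.9 and 436 ± 54.3 in the same groups. Its medium-minus-air difference was 1.60, and 0.88 on its other probe set.

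SLC7A1, a cationic amino acid transporter, had r = 0.937. PNPT1, a mitochondrial RNA nuclease, RRP15, an rRNA processing factor, and NUDT6, a nudix hydrolase, had r = 0.928, 0.928 and 0.927, and a dimmer probe set of NUDT6 pointed the other way between medium and air, at -0.19. After the exposure means were removed, r ranged from 0.528 for NUDT6 to 0.864 for SLC7A1 over these 6 genes, values that are part of what selected them.

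At the other end, FBXO32, the muscle atrophy ubiquitin ligase subunit atrogin 1, had r = -0.960 (Spearman -0.988, and -0.914 without animals 44 and 29). Its signal was 223 to 320 in air, 122 to 153 in low-dose and 47.8 to 88.9 in medium animals. These groups did not overlap, in the reverse order of F3. A choice by low r with F3 favours such an order, so this is a description. SERINC1, a membrane protein, MEN1, the tumour suppressor menin, and PFKM, the muscle form of phosphofructokinase, had r = -0.932, -0.927 and -0.925, and the other probe set of SERINC1 was near 0 between medium and air, at 0.10.

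Within animals, after animal and lobe means were removed from the 28 arrays, other genes were the most like F3. They were MRPL40, of the mitochondrial ribosome (r = 0.830), HSD17B2, a steroid dehydrogenase (r = 0.811), IYD, an iodotyrosine deiodinase (r = 0.787), SULF2, a heparan sulfate sulfatase (r = 0.774), IFRD1, a transcriptional regulator (r = 0.772), and ATP10A, a phospholipid flippase (r = 0.754). Their r over animals ran from 0.284 for SULF2 to 0.785 for IFRD1. The 28 points keep 16 residual degrees of freedom and share the array with F3.

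**Figure D3:**
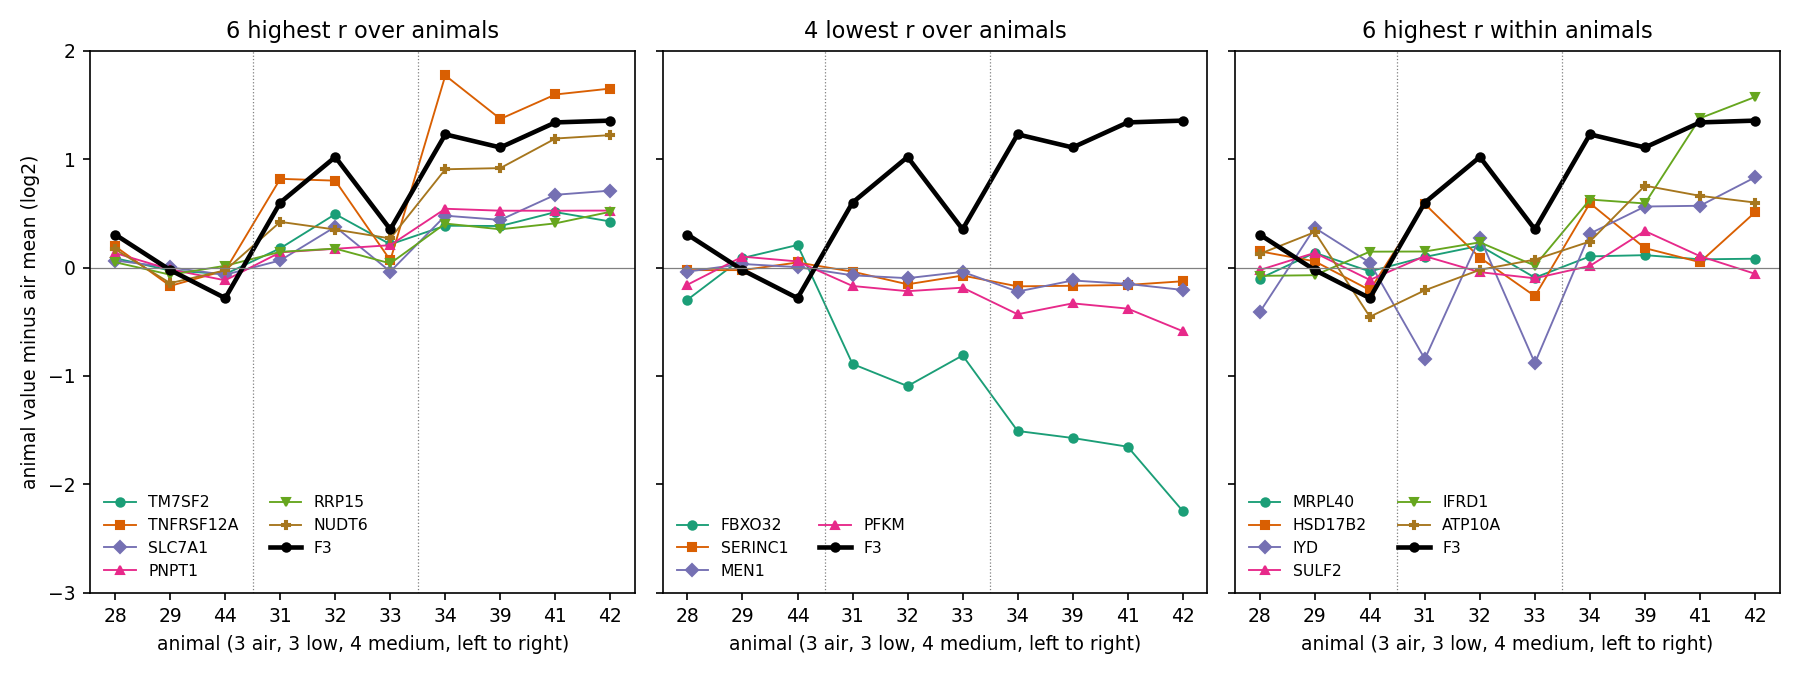
Animal values of F3 (thick black line) and of the genes with the highest r over animals, the lowest r over animals and the highest r within animals, on the log2 scale relative to the air mean. Dotted lines part 3 air, 3 low-dose and 4 medium animals; TNFRSF12A stands above F3 in all 4 medium animals and FBXO32 is lowest in the medium animals.

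The choice over animals did not use lobe differences, but the animal values came from the same lobe arrays. The chosen genes share the profile of F3, so the counts that follow are a description and not independent of each other. The apical-minus-median difference was below 0 for all 6 genes most like F3, beside 51.3% of all probe sets above 0, and 3 of the 6 passed by limma, beside 2.38% of all probe sets: TNFRSF12A by -0.99 ± 0.21 (adjusted p = 0.0255, lower in 9 of 9 animals), SLC7A1 by -0.34 ± 0.07 (adjusted p = 0.0269, 8 of 9) and TM7SF2 by -0.24 ± 0.06 (adjusted p = 0.0361, 7 of 9). It was above 0 for the 4 least like F3, and 2 passed: FBXO32 by 0.48 ± 0.11 (adjusted p = 0.0281, higher in 8 of 9) and PFKM by 0.26 ± 0.07 (adjusted p = 0.0467, 8 of 9). Of the 6 genes chosen within animals, 5 were below 0 and IFRD1 passed, by -0.46 ± 0.10 (adjusted p = 0.0269, 9 of 9).

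These calls also ended without single animals, always with the same direction. TNFRSF12A no longer passed without 44, 34, 39 or 42 (adjusted p of 0.0549 to 0.0827), SLC7A1, FBXO32 and IFRD1 without these or 28 (0.0519 to 0.101), TM7SF2 without these, 28, 31 or 32 (0.0528 to 0.125), and PFKM without any animal other than 29 (0.0589 to 0.127). With no replicate block TNFRSF12A alone passed, the others having adjusted p of 0.0857 to 0.172. Subsets with fewer animals lost every one of these calls, TNFRSF12A included. Adjusted p was 0.0820 to 0.103 in the 8 animals with 3 lobes, 0.106 to 0.147 in exposed animals alone and 0.777 to 0.851 in air animals alone. With an offset of 1 TM7SF2, FBXO32 and PFKM did not pass (0.0506 to 0.0692), and with the deposited scaling PFKM did not (0.0598).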

How the data were processed

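The deposited table gave 1 signal intensity per probe set and array on a linear scale. Trimmed by 2% at each end, the mean signal was 150.0 on all 28 arrays. The summarization software was not given in the sources used here, nor was the genome build. Of 24123 probe sets, 124 controls were left out. The supplied annotation named 10069 of the 23999 others with 1 symbol and 198 with several, and 13732 were not listed. A gene was read from its brightest probe set.

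Signals became log2(signal + 16) and were quantile normalized, with limma 3.58.1 in R 4.3.3. Exposure was fitted with lmFit and eBayes on 10 animal values from a model of animal and lobe. Lobe fits used all 28 arrays and an animal term, which paired the lobes of 1 animal, as the labels do. Benjamini-Hochberg adjustment ran over all 23999 probe sets, and an adjusted p under 0.05 was a call. The steps were tested on simulated data, and figures were drawn with matplotlib 3.10.9 in Python 3.11.15. The number of animals limits the precision of the exposure fits, and p-values from the animal values measure the spread between animals. Lobe p-values measure the spread left after the animal and lobe terms. Fits with a random animal effect used 28 arrays and 1 correlation between lobes for all probe sets. Their p-values count the lobes of 1 animal as partly separate, and fits with no replicate block ignore the animal.

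F3 and the gene lists were chosen with earlier results of these data known. Genes named were F3, called list genes, a set of list genes whatever their p, and the genes most and least like F3. VWF, F2RL2 in the exposure fit, FOSL1, FOSL2, ATF3, CCL2 and ICAM1 were named after their values were seen. So were IL6, IL1A, TNF, SELE, IL1B, SELP, VCAM1, NFKB1 and SP1. Alternatives covered normalization, offset, brightness, moderation, animals, blocks and the RNA index.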

Additional observations from a re-analysis of the deposited data

Results flagged for a closer look

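Of 36 sets of values of the 4 medium animals (animal values of the named genes, and for F3 also the median lobe) examined for 1 animal apart from the others, 3 were picked out by the gap to the nearest other animal as a share of the group's range, and chance picks about 1 in 20 such groups. PROCR had animal 34 at a log2 value of 7.15, with the other 3 medium animals at 7.52 to 7.60, a gap of 0.83 of the range. F2R had animal 42 at 10.09, with the others at 9.72 to 9.76, a gap of 0.898 of the range. PNPT1 had animal 34 at 6.94, with the others at 6.92, a gap of 0.919 of a narrow range. F3 itself had no medium animal apart.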

How the results depend on the processing

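The F3 exposure differences kept their direction over 19 alternatives each, at 1.11 to 1.41 for medium minus air, 0.48 to 0.81 for low minus air and 0.44 to 0.78 for medium minus low. Since F3 was chosen for this rise and its animal groups did not overlap, the kept direction is a description and no support. The apical-minus-median difference of F3 lay between -0.57 and -0.04 and passed under none of 21 alternatives (adjusted p of 0.144 to 0.993). With no replicate block it was -0.40 (adjusted p = 0.502), and with the animal as a random replicate block -0.39 (adjusted p = 0.271). The apical-minus-caudal difference turned to 0.36 in air animals alone and to 0.0034 without medium animal 34, and leaving out 1 animal gave -0.29 to 0.0034; the cause was not tested. The interaction passed under none of 16 alternatives.

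With a random animal effect, list genes called were 8 (17.0% of 47, beside 4.35% of all probe sets) in medium against air and 5 (10.6%, beside 5.84%) in medium against low. Leaving out 1 animal gave 0 to 1 and 0 to 3, the upper values without medium animal 34. The value of FGB medium minus air changed sign to 0.0062 with the deposited scaling and 0.015 with median-centred arrays, and leaving out 1 animal gave -0.085 to 0.0094, above 0 without medium animal 34 or 42; the cause was not tested. Over the alternatives, calls of all probe sets ran from 0 to 1044 for medium against air, 0 to 1401 for medium against low, 0 to 28 for low against air, 0 to 1005 for apical against median, 0 to 150 for apical against caudal, 0 to 3 for median against caudal and 0 to 1 for the interaction. TFPI, FGB and most coagulation factors had signals near the offset, which limits what their differences show.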
